A study of Mus musculus with 12 samples.

Results

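The class 3 semaphorins and their plexin receptors were followed through the cell classes of the mouse lung, in saline-instilled and bleomycin-injured animals with or without an inhibitor of the receptor tyrosine kinase EphB4. The genes are 7 ligands, Sema3a, Sema3b, Sema3c, Sema3d, Sema3e, Sema3f and Sema3g, and 3 receptors, Plxna2, Plxna4 and Plxnd1. They were taken by symbol, as 10 of the 31053 genes listed in the deposited tables. Each of the 10 was detected, with summed counts over the 12 libraries from 1325 unique molecular identifiers (UMIs, the molecule counts of the assay) for Sema3b to 179070 for Sema3e.

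Class 3 semaphorins are the secreted members of the semaphorin family and are best known as guidance cues that repel or attract growing axons and migrating cells. Most of them bind the coreceptors neuropilin-1 (Nrp1) or neuropilin-2 (Nrp2), which lack a signalling domain and pair with A-type plexins, the subunits whose intracellular GTPase-activating domain acts on small GTPases and the cytoskeleton. Sema3e is the exception, since it binds plexin D1 directly, and in the lung the family is known for roles in airway branching, alveolar growth and the patterning of blood and lymphatic vessels.

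The samples were lungs of wild-type C57BL/6J mice, 3 animals in each of 4 groups, which were 7 weeks old when PBS or bleomycin, an antitumour drug used to bring about lung injury and scarring, was put into the trachea. From 5 days later the mice were given NVP-BHG712, an inhibitor of EphB4, or its vehicle (N-methyl-2-pyrrolidone with polyethylene glycol) by mouth once a day for 5 days, and lungs were collected 14 days after instillation. The groups are named PBS_Vehicle, PBS_NVP-BHG712, Bleo_Vehicle and Bleo_NVP-BHG712, and all animals carried the same genotype. Nuclei were isolated from frozen lung by homogenization, sorted on DAPI and sequenced as single-nucleus 3′ libraries, so that every count below is of nuclear RNA.

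The 12 libraries held 3556084 to 61947690 UMIs each, and 44611 of 49163 barcodes were used, 1168 to 11867 a library with a median of 1076 to 5268 UMIs a nucleus. Nuclei were clustered without the 10 genes and sorted by marker lists into 19 classes, each written here with the suffix -like, and 2.82% stayed unnamed. As an example of such a list, the 8 AT1 markers summed to 7564 to 16459 CPM in AT1-like nuclei of the 12 libraries. AT1 cells are the flat cells that form the air-blood barrier, and CPM are UMIs per 1000000 UMIs of the class, after scaling. The same list named the class, so this sum is a description and no support for the name. The 3 Bleo_Vehicle libraries stood apart, with a median mitochondrial share of 2.56, 1.32 and 0.668% for replicates 1, 2 and 3 against at most 0.0496% in the other 9, and the labels give them batch numbers of their own while the Bleo_NVP-BHG712 libraries share a run that no other group has. For every comparison that holds a bleomycin group, batch and group therefore cannot be told apart, and each of the 66 pairs of libraries shared between 0 and 34 barcodes.

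In the GRCm38 assembly, 4 of the ligand genes lie on the plus strand of chromosome 5 in the order Sema3d, Sema3a, Sema3e and Sema3c, separated by 536, 423 and 3318 kb. Their GENCODE spans are chr5:12383385-12588948 for Sema3d, chr5:13125414-13602565 for Sema3a, chr5:14025276-14256689 for Sema3e and chr5:17574281-17730268 for Sema3c. Sema3b (chr9:107597674-107609229) and Sema3f (chr9:107681500-107710475) are neighbours on the minus strand of chromosome 9, 72.3 kb apart, and Sema3g lies alone at chr14:31217860-31230352 on the plus strand. The plexin genes are Plxna2 at chr1:194618218-194816869 on the plus strand, and Plxna4 at chr6:32144268-32588192 and Plxnd1 at chr6:115954811-115995005 on the minus strand. Plxna4 is overlapped by 3 antisense genes, Plxna4os1, Plxna4os2 and Plxna4os3, and the spans of Sema3a, Sema3d, Sema3e and Plxna2 hold smaller predicted genes on the same strand, so that reads shared with them would be uncertain.

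The 250 bases upstream of the annotated start were read from RefSeq (GRCm38.p6) for 7 of the 10 genes, and those of Sema3a, Sema3e and Sema3c are shown because these are the ligands with the clearest division between epithelium and capillary below. All 3 windows are written 5′ to 3′ on the plus strand, with CG pairs in capitals.
Sema3a (chr5:13396534-13396783): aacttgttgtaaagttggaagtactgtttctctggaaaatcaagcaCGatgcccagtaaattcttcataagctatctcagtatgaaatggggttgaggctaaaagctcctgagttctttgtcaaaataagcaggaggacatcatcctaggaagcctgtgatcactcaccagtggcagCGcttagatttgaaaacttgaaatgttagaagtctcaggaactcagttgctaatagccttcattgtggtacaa
Sema3e (chr5:14025026-14025275): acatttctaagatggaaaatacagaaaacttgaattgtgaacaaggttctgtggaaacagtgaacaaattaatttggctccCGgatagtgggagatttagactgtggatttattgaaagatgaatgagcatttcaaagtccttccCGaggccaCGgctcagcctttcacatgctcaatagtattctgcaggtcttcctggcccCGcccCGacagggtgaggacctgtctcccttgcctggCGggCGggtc
Sema3c (chr5:17574566-17574815): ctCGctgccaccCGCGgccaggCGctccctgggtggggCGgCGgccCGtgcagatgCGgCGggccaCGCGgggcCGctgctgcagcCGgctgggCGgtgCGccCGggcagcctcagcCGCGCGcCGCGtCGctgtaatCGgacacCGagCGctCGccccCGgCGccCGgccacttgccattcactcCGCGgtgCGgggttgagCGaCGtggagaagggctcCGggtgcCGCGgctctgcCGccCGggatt

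The Sema3a window held 2 CG pairs, and 29% of the 32851 RefSeq promoter windows had as few or fewer. The Sema3e window held 7, and 46.3% of windows had as many or more. In the Sema3c window there were 39 CG pairs, a number reached by 1.56% of windows. The RefSeq starts of Sema3a and Sema3c, and their whole windows, lie inside the longer GENCODE spans of these genes, and 3′ libraries do not show which start was used.

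Levels were compared between classes within 1 gene only, as the mean CPM over libraries, since the length of a gene's introns adds to its nuclear count. These levels are descriptions with no test, and the map of mean levels by class shows that each gene had its highest mean in an epithelial, endothelial, lymphatic or mesothelial class.

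**Figure D1:**
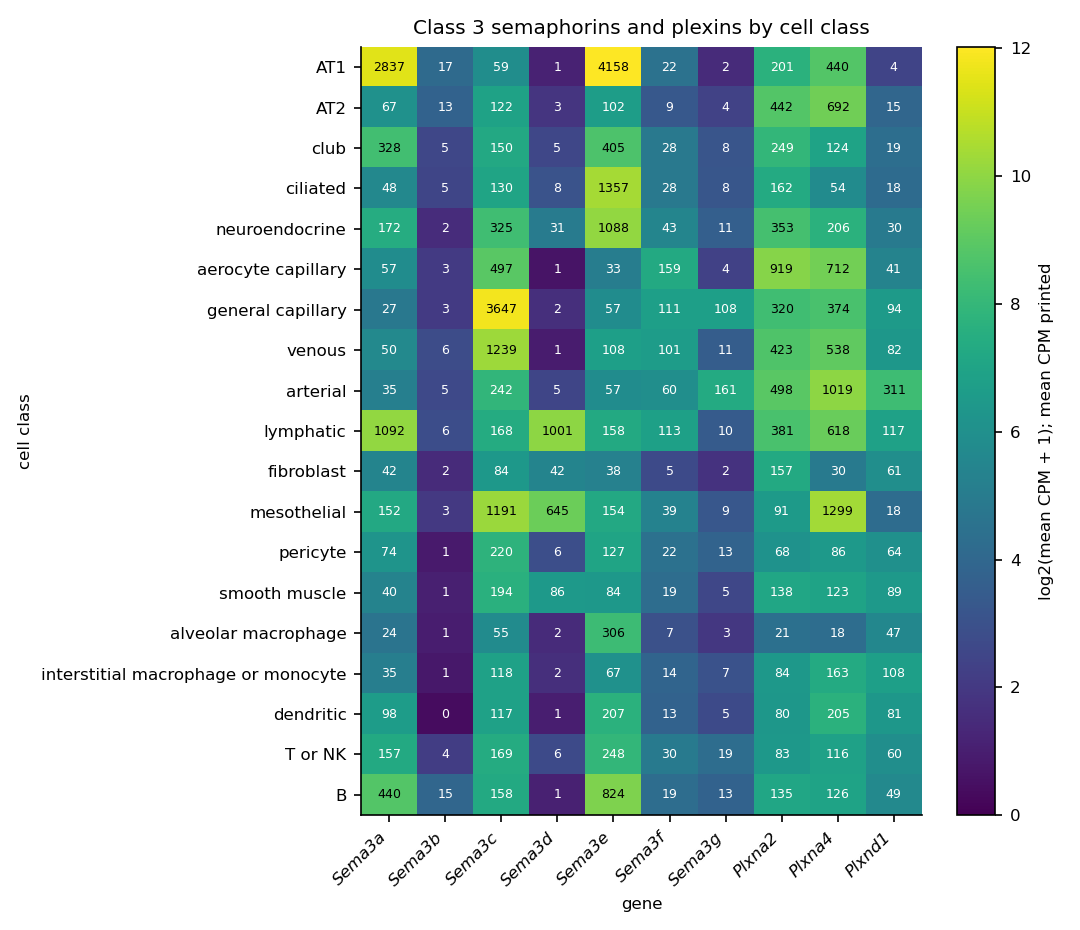
Mean level of the 10 genes (columns) in each of the 19 marker-defined cell classes (rows), coloured by log2(mean CPM + 1) over the libraries with at least 20 nuclei of the class and printed as mean CPM. Sema3a and Sema3e are highest in AT1, Sema3c in general capillary, Sema3d in lymphatic and Plxnd1 in arterial nuclei.

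Sema3a and Sema3e shared AT1-like nuclei as their highest class. Sema3a, the founding repellent of the family, was at 2837 ± 832 CPM (SD, n = 12) there, with a lowest 1156, median 3146 and highest 3925 CPM. Lymphatic endothelial-like nuclei came next at 1092 ± 346 CPM (SD, n = 7), and their libraries overlapped with the lowest AT1-like ones. Sema3e, the ligand of plexin D1, was at 4158 ± 1172 CPM (SD, n = 12) in AT1-like nuclei (lowest 1959.8, median 4694 and highest 5337 CPM), and every library lay above every library of the next class, ciliated-like nuclei at 1357 ± 400.2 CPM (SD, n = 12). Club-like nuclei, the secretory cells of the airway, held 328 ± 85.9 CPM (SD, n = 12) of Sema3a and 405 ± 111 CPM (SD, n = 12) of Sema3e. After every nucleus was thinned to 1000 UMIs, 74.9% of AT1-like nuclei had a Sema3a UMI and 90.3% a Sema3e UMI, against 5.62% and 11% of T or NK-like nuclei (median depths 5126 and 1279 UMIs before thinning). Without thinning the AT1-like shares were 89.5% and 95.4%, and the T or NK-like shares 8.20% and 12.7%.

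B-like nuclei were among the 4 classes of highest mean for both genes, at 440.1 ± 722 CPM (SD, n = 7) for Sema3a and 824 ± 1243 CPM (SD, n = 7) for Sema3e, but unevenly. In PBS_Vehicle replicate 1 and PBS_NVP-BHG712 replicate 2 the B-like nuclei held 478 and 2036 CPM of Sema3a, and the 8 AT1 markers summed to 4639 and 6625 CPM. In the other 5 libraries with enough B-like nuclei the AT1 markers summed to 106 to 1995 CPM, and the part of these transcripts in the B-like level was not tested.

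The other ligands had their highest levels outside AT1-like nuclei, apart from Sema3b. Sema3c, an attractant of vascular and neural crest cells, was at 3647 ± 1287 CPM (SD, n = 12) in general capillary-like nuclei, the progenitor type of capillary endothelium, and at 1239 ± 505 CPM (SD, n = 12) in venous-like and 1191 ± 487 CPM (SD, n = 8) in mesothelial-like nuclei. Its libraries in general capillary-like nuclei ran from 1139 to 5516 CPM and overlapped with the venous ones only through the lowest Bleo_Vehicle libraries. Sema3f, a ligand of neuropilin-2, was at 159 ± 65.4 CPM (SD, n = 12) in aerocyte capillary-like nuclei, the thin capillary type of gas exchange, at 113 ± 85.7 CPM (SD, n = 7) in lymphatic, 111 ± 65.5 CPM (SD, n = 12) in general capillary and 101 ± 68.7 CPM (SD, n = 12) in venous-like nuclei, and these neighbours did not differ beyond their spread. Sema3g, an endothelial semaphorin, led in arterial-like nuclei with 161 ± 51.1 CPM (SD, n = 10) and was at 108 ± 37.3 CPM (SD, n = 12) in general capillary-like nuclei, again overlapping. Sema3d stood in lymphatic-like nuclei at 1001 ± 543 CPM (SD, n = 7) and in mesothelial-like nuclei, the lining of the lung surface, at 645 ± 224 CPM (SD, n = 8), well above smooth muscle-like nuclei at 85.5 ± 8.04 CPM (SD, n = 3). Sema3b was low in every class, at 17.1 ± 4.76 CPM (SD, n = 12) in AT1-like nuclei and at a mean below 20 CPM in each other class.

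The receptors had wider patterns than the ligands. Plxna2 was at 919 ± 221 CPM (SD, n = 12) in aerocyte capillary-like nuclei, followed by arterial at 498 ± 173 CPM (SD, n = 10), AT2 at 442 ± 118 CPM (SD, n = 12) and venous-like nuclei at 423 ± 113 CPM (SD, n = 12), with each class overlapping the next (AT2 cells are the surfactant-making cells of the alveolus). Plxna4, a plexin that transmits Sema3a signals with neuropilin-1, was at 1299 ± 663 CPM (SD, n = 8) in mesothelial, 1019 ± 280.0 CPM (SD, n = 10) in arterial, 712 ± 146 CPM (SD, n = 12) in aerocyte capillary and 692 ± 122 CPM (SD, n = 12) in AT2-like nuclei. Plxnd1, the direct receptor of Sema3e, was highest in arterial-like nuclei at 311 ± 83.5 CPM (SD, n = 10), and lymphatic, interstitial macrophage or monocyte and general capillary-like nuclei followed at 117 ± 52.9 CPM (SD, n = 7), 108 ± 44.9 CPM (SD, n = 11) and 93.6 ± 29.9 CPM (SD, n = 12). In AT1-like nuclei, where its ligand Sema3e was highest, Plxnd1 was at 4.47 ± 2.59 CPM (SD, n = 12). Nrp1 was highest in aerocyte capillary-like nuclei at 2562 ± 537 CPM (SD, n = 12) and in AT2-like nuclei at 1267 ± 444 CPM (SD, n = 12), whereas Nrp2 was highest in lymphatic-like nuclei at 1232 ± 327 CPM (SD, n = 7), followed by venous-like nuclei at 308 ± 136 CPM (SD, n = 12).

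**Figure D2:**
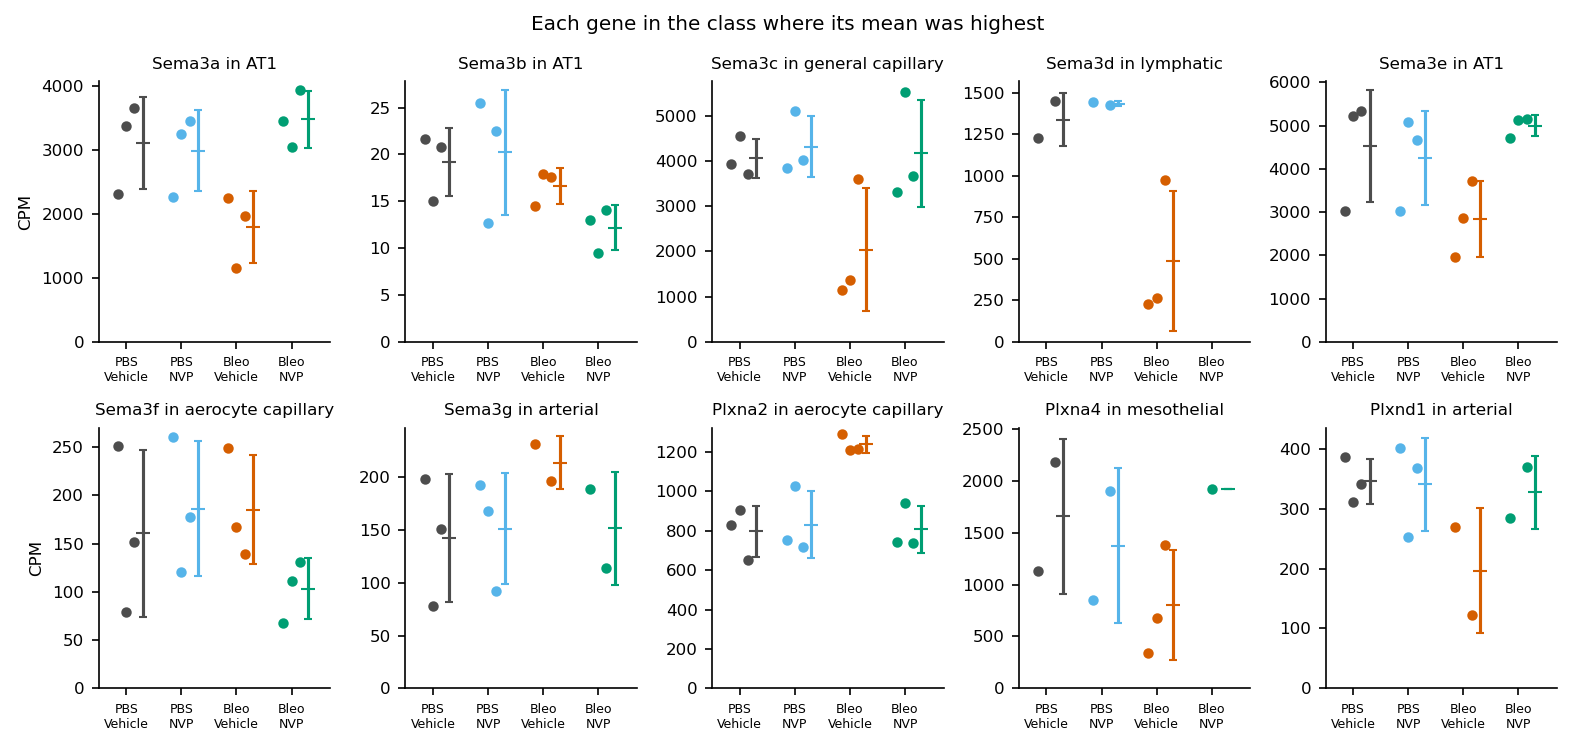
Level of each gene in the class where its mean is highest (CPM, linear axis from 0), 1 point per library with at least 20 nuclei of that class, and the mean ± SD of each group. Sema3a, Sema3c, Sema3d and Sema3e sit lower in several Bleo_Vehicle libraries, and Plxna2 sits higher in all 3.

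Over the 19 class means on the log2(CPM + 1) scale, the pairs of these genes with the most similar pattern were Sema3c with Sema3f (Pearson r = 0.72), Sema3f with Plxna2 (r = 0.66), Plxna2 with Plxna4 (r = 0.66) and Sema3a with Sema3e (r = 0.64). The least similar pair was Sema3e with its receptor Plxnd1 (r = -0.65). Among 12318 genes with at least 10 CPM in some class, the 3 most like Sema3a were Mpp7 (r = 0.858), Slc22a22 (r = 0.841) and Itgb6 (r = 0.829), and the 3 most like Sema3e were Cyp2b10 (r = 0.864), Nt5e (r = 0.861) and Epb41l4b (r = 0.861). For Sema3c they were Slco2a1 (r = 0.877), Chrm2 (r = 0.85) and Hpgd (r = 0.842), and for Sema3d they were Tenm3 (r = 0.929), Fxyd6 (r = 0.894) and Npas3 (r = 0.863). The most similar gene was Magi3 (r = 0.792) for Sema3b, Podxl (r = 0.901) for Sema3f, Cxcl12 (r = 0.883) for Sema3g, Tspan12 (r = 0.912) for Plxna2, Stap2 (r = 0.841) for Plxna4 and Lrrc8a (r = 0.855) for Plxnd1. These coefficients are descriptions over 19 class means that share their libraries, and they carry no p-value.

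Fibroblast-like nuclei fell into 5 clusters in which the same genes were divided again. Sema3d was at 111 to 607 CPM over the libraries of cluster 17, which carried adventitial markers such as Pi16 and Scara5, and at 0 to 7.69 CPM in cluster 3, which carried alveolar fibroblast markers. Sema3c (412 to 1476 CPM) and Plxna4 (79.8 to 863 CPM) were highest in cluster 20, which carried the peribronchial markers Hhip, Lgr5 and Aspn. Plxna2 went the other way, with 78.8 to 299 CPM in cluster 3 and 0 to 191 CPM in cluster 20. In PBS_Vehicle replicate 1 and PBS_NVP-BHG712 replicate 1, the 2 libraries of the run numbered 1, Plxna2 in all fibroblast-like nuclei was at 75 and 71 CPM, below the 163 to 227 CPM of the other 4 PBS libraries.

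**Figure D3:**
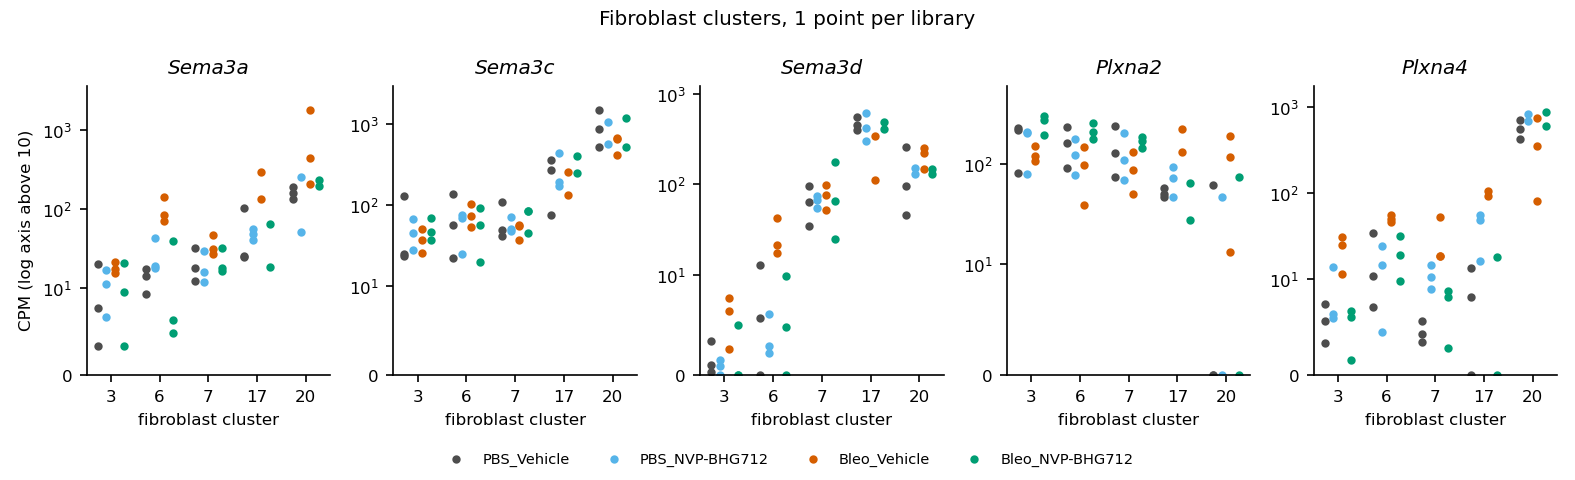
Levels of Sema3a, Sema3c, Sema3d, Plxna2 and Plxna4 (CPM, logarithmic above 10 and linear to 0 below) in fibroblast clusters 3, 6, 7, 17 and 20, 1 point per library with at least 20 nuclei of the cluster, coloured by group. Sema3d peaks in cluster 17, and Sema3c and Plxna4 peak in cluster 20.

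To ask what bleomycin changed, UMIs were summed per library and class and tested across mice with edgeR's quasi-likelihood test and Benjamini-Hochberg adjustment over all genes of a class. Of 19 classes, 11 had enough nuclei in every group, which gave 71 combinations of gene and class (11 each for Sema3c, Plxna2 and Plxna4, 10 for Sema3e and Plxnd1, 8 for Sema3a, 6 for Sema3f, 2 for Sema3g and 1 for Sema3b and Sema3d). In Bleo_Vehicle against PBS_Vehicle, 11 of the 71 were higher at an adjusted p under 0.05, where 2.6% of all 64693 gene and class combinations were, and 0 were lower, where 0.782% of all were. At an unadjusted p under 0.05 there were 28, where 15.4% of all combinations were, and DESeq2's test called 14. The groups did not overlap in 24 of the 71, and in 19.9% of all combinations. The median log2 change was 0.06, against -0.02 for the median of the 11 class medians over all genes. The 11 were made up of Sema3a, Sema3e, Plxna2 and Plxna4 only, and none of these calls was in the class where the gene had its highest mean.

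To ask what EphB4 inhibition changed in injured lungs, Bleo_NVP-BHG712 was set against Bleo_Vehicle, the same libraries that entered the comparison above, so the 2 comparisons are not independent. Here 9 of 71 were lower, where 2.86% of all combinations were, and 1 was higher, where 1.24% of all were. At an unadjusted p under 0.05 there were 31, where 17.8% of all were, and DESeq2's test called 13. The groups did not overlap in 31 of the 71, and in 25.4% of all combinations. The median log2 change was -0.32, against -0.0019 for the median of the class medians over all genes, and the same 4 genes made up the calls.

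**Figure D4:**
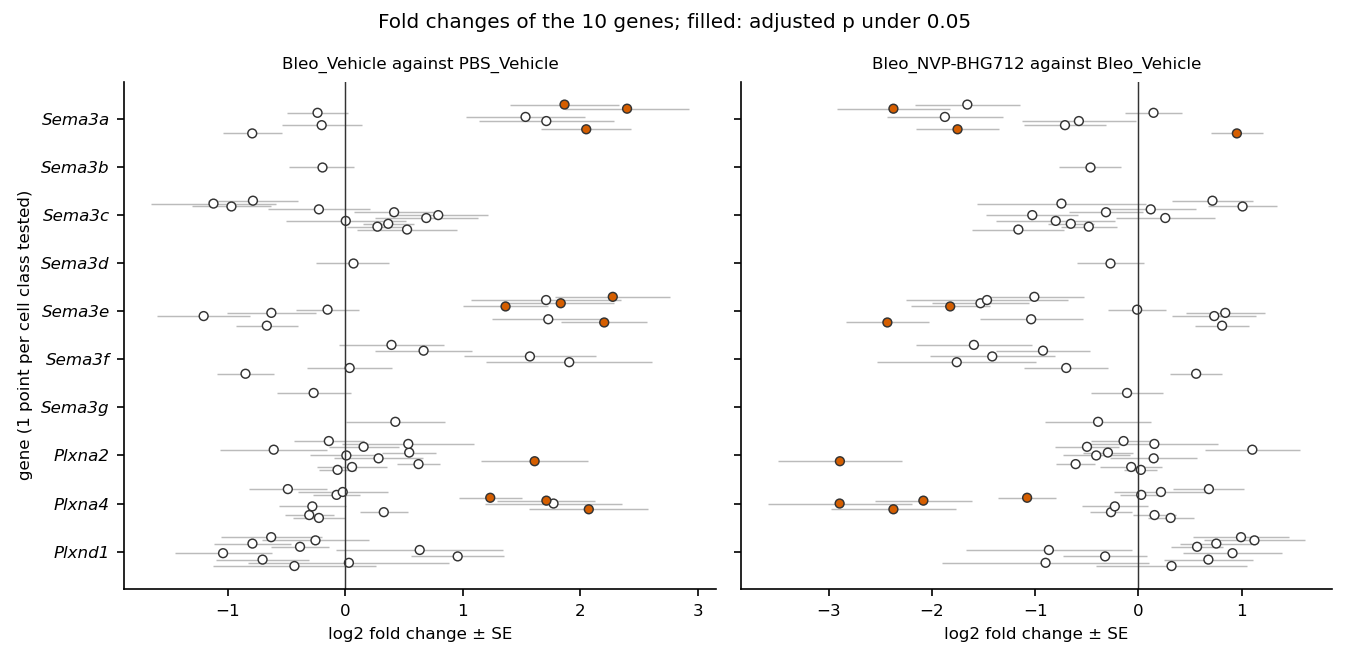
Log2 fold change ± SE of each gene in each of the 11 tested classes, for Bleo_Vehicle against PBS_Vehicle and for Bleo_NVP-BHG712 against Bleo_Vehicle. Filled points have an adjusted p under 0.05 in edgeR's quasi-likelihood test; 11 of 71 are filled in the first comparison, all above 0, and 10 of 71 in the second, 9 of them below 0.

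Sema3a rose after bleomycin in AT2, fibroblast and general capillary-like nuclei. In AT2-like nuclei the PBS_Vehicle libraries held 31.9, 47.8 and 31.1 CPM (replicates 1, 2 and 3, as in all such lists) from 68, 19 and 11 UMIs, and the Bleo_Vehicle libraries 154, 153 and 141 CPM from 34, 154 and 666 UMIs. All 3 bleomycin libraries were close together and several times above all 3 controls, a log2 change of 2.05 (SE 0.38, adjusted p = 0.00671). With NVP-BHG712 the bleomycin libraries were at 42.5, 16.9 and 75.6 CPM, from 13, 7 and 26 UMIs. These lay in and around the control range and all below Bleo_Vehicle, and Sema3a fell by 1.75 (SE 0.40, adjusted p = 0.0203) on the log2 scale.

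In fibroblast-like nuclei Sema3a was at 19.7, 12.2 and 26.6 CPM in PBS_Vehicle, 210.2, 57.8 and 56 CPM in Bleo_Vehicle and 19.1, 12.7 and 28 CPM in Bleo_NVP-BHG712. Every Bleo_Vehicle library was above every library of the other 2 groups, but replicate 1 stood far above its fellows, and 118 of its 185 UMIs came from 1 nucleus. The log2 changes were 2.40 (SE 0.52, adjusted p = 0.0254) after bleomycin and -2.37 (SE 0.55, adjusted p = 0.0251) with the inhibitor. By cluster, Bleo_Vehicle libraries were above PBS_Vehicle libraries in cluster 6 (142, 70.7 and 83 against 9.24, 17.1 and 14.2 CPM). In cluster 3 the groups overlapped (15.4, 21.4 and 17.2 against 7.73, 3.40 and 20.2 CPM), and this division was not tested. Cluster 6 carried Tnc, Thbs1 and Adamtsl2 but also alveolar fibroblast markers, as cluster 3 did. Its median depth was 1410 UMIs a nucleus against 4323 in cluster 3, and 55.05% of its nuclei came from Bleo_Vehicle.

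In general capillary-like nuclei Sema3a was at 11.8, 11.4 and 33.8 CPM in PBS_Vehicle and 36.1, 79.6 and 44.7 CPM in Bleo_Vehicle, from 24, 7 and 8 and 4, 46 and 147 UMIs. The lowest bleomycin library lay just above the highest control, and the log2 change was 1.87 (SE 0.46, adjusted p = 0.0251). In Bleo_NVP-BHG712 it was at 24.1, 14.6 and 17.7 CPM, a log2 change of -1.66 (SE 0.51, adjusted p = 0.0717) that did not pass the threshold.

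In AT1-like nuclei, where Sema3a was highest, it went in the opposite direction. The libraries held 2299.6, 3362 and 3651 CPM in PBS_Vehicle, 2252, 1156 and 1966 in Bleo_Vehicle and 3441, 3047 and 3925 in Bleo_NVP-BHG712. Each Bleo_Vehicle library was below each library of the other 2 groups, by a narrow margin for its replicate 1. The change after bleomycin did not pass the threshold, at -0.79 (SE 0.25, adjusted p = 0.0953) on the log2 scale, whereas Sema3a rose with NVP-BHG712 by 0.95 (SE 0.25, adjusted p = 0.0427). AT1-like cluster 13 was drawn mostly from Bleo_Vehicle (79.98% of its nuclei), and within cluster 1 alone, a restriction added after the data were seen, the rise with NVP-BHG712 was 1.13 (adjusted p = 0.0157).

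The calls for Sema3a differed in how far they rested on single libraries. After bleomycin, the call was lost in AT2-like nuclei without PBS_Vehicle replicate 1 (adjusted p = 0.0615), in fibroblast-like nuclei without PBS_Vehicle replicates 1, 2 or 3 (adjusted p = 0.0676 to 0.0875), and in general capillary-like nuclei without PBS_Vehicle replicates 1 or 2 or Bleo_Vehicle replicate 2 (adjusted p = 0.108 to 0.265). With NVP-BHG712, it was lost in AT2-like nuclei without Bleo_Vehicle replicate 2 or Bleo_NVP-BHG712 replicates 1 or 2 (adjusted p = 0.0673 to 0.0984), in fibroblast-like nuclei without Bleo_NVP-BHG712 replicates 1, 2 or 3 (adjusted p = 0.0622 to 0.0905), and in AT1-like nuclei without PBS_Vehicle replicate 2, PBS_NVP-BHG712 replicate 2, Bleo_Vehicle replicate 2 or Bleo_NVP-BHG712 replicates 1, 2 or 3 (adjusted p = 0.0551 to 0.165). Without Bleo_Vehicle replicates 1 and 2, the libraries of highest mitochondrial share, the single library left was taken to vary like the other groups, and no Sema3a call remained. The log2 values were then 2.00 (adjusted p = 0.0519) in AT2, 1.54 (adjusted p = 0.0655) in fibroblast and 1.55 (adjusted p = 0.317) in general capillary-like nuclei after bleomycin. With NVP-BHG712 they were -1.69 (adjusted p = 0.134) in AT2, -1.52 (adjusted p = 0.074) in fibroblast and 0.82 (adjusted p = 0.277) in AT1-like nuclei, each with an unchanged direction.

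Sema3e rose after bleomycin in 4 classes, AT2, fibroblast, general capillary and venous-like nuclei. In AT2-like nuclei it was at 54.9, 57.9 and 39.6 CPM in PBS_Vehicle, 344, 270.4 and 141 CPM in Bleo_Vehicle and 36, 36.3 and 61.1 CPM in Bleo_NVP-BHG712. All Bleo_Vehicle libraries were above all libraries of the other 2 groups, which overlapped with each other. Sema3e rose by 2.20 (SE 0.37, adjusted p = 0.00389) and, with the inhibitor, fell by 2.43 (SE 0.40, adjusted p = 0.00343) on the log2 scale. Both calls were kept in each of the 12 fits that left out 1 library, and without Bleo_Vehicle replicates 1 and 2 the changes were 1.45 (adjusted p = 0.0329) and -1.67 (adjusted p = 0.0189).

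In fibroblast-like nuclei Sema3e was at 22.3, 26.9 and 39.97 CPM in PBS_Vehicle, 35.2, 88.7 and 92.1 CPM in Bleo_Vehicle and 19.1, 18.1 and 26 CPM in Bleo_NVP-BHG712. Bleo_Vehicle replicate 1 lay within the control range, so the groups overlapped, and replicates 2 and 3 were above it, whereas all inhibitor libraries were below all Bleo_Vehicle libraries. The log2 changes were 1.36 (SE 0.36, adjusted p = 0.0448) after bleomycin and -1.82 (SE 0.38, adjusted p = 0.0149) with NVP-BHG712, and 1.68 (adjusted p = 0.033) and -2.14 (adjusted p = 0.0117) without Bleo_Vehicle replicates 1 and 2.

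In general capillary-like nuclei the libraries held 19.1, 40.7 and 59.1 CPM in PBS_Vehicle, 81.3, 189 and 80.6 CPM in Bleo_Vehicle and 12.1, 56.3 and 42.4 CPM in Bleo_NVP-BHG712. Bleo_Vehicle was again the highest group, without overlap with the controls, and Sema3e rose by 1.83 (SE 0.45, adjusted p = 0.0294) after bleomycin, while with NVP-BHG712 the change of -1.53 (SE 0.47, adjusted p = 0.079) did not pass. In venous-like nuclei it was at 36.7, 40.6 and 66.3 CPM in PBS_Vehicle, 108, 339.9 and 133 CPM in Bleo_Vehicle and 203, 61.8 and 80.6 CPM in Bleo_NVP-BHG712, where replicate 1 of Bleo_Vehicle rests on 3 UMIs and 57 of the 94 UMIs of replicate 2 came from 1 nucleus. The bleomycin libraries were all above the controls, with a log2 change of 2.28 (SE 0.49, adjusted p = 0.0176), and overlapped with the inhibitor libraries (-1.01, SE 0.49, adjusted p = 0.439).

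Of the bleomycin calls for Sema3e outside AT2-like nuclei, those in endothelium were lost in general capillary-like nuclei without PBS_Vehicle replicates 1 or 2 or Bleo_Vehicle replicate 2 (adjusted p = 0.0678 to 0.3), and in venous-like nuclei without PBS_Vehicle replicates 1 or 2 or Bleo_Vehicle replicate 2 (adjusted p = 0.0683 to 0.58). The call in fibroblast-like nuclei was lost in 9 of 12 such fits, all but those without PBS_NVP-BHG712 replicates 1 or 3 or Bleo_Vehicle replicate 1 (adjusted p = 0.0546 to 0.155). The fall in fibroblast-like nuclei with NVP-BHG712 was lost without Bleo_Vehicle replicate 2 or Bleo_NVP-BHG712 replicates 1 or 2 (adjusted p = 0.0537 to 0.0636). Without Bleo_Vehicle replicates 1 and 2 the log2 change after bleomycin was 1.25 (adjusted p = 0.457) in general capillary and 1.60 (adjusted p = 0.757) in venous-like nuclei.

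Where Sema3e was highest, the direction after bleomycin was downward and no call was made. AT1-like nuclei held 3034, 5217 and 5337 CPM in PBS_Vehicle, 1959.8, 2864 and 3715 in Bleo_Vehicle and 4712, 5136 and 5148 in Bleo_NVP-BHG712. The lowest 2 of these 9 libraries were Bleo_Vehicle ones, with overlap against PBS_Vehicle and none against Bleo_NVP-BHG712, and the log2 changes were -0.67 (SE 0.26, adjusted p = 0.185) and 0.81 (SE 0.27, adjusted p = 0.0923). Within AT1-like cluster 1 alone the latter was 1.00 (adjusted p = 0.0437), which passed the threshold. In ciliated-like nuclei Sema3e was at 1437, 1449 and 1377 CPM in PBS_Vehicle and 361, 744 and 1538 CPM in Bleo_Vehicle, and in alveolar macrophage-like nuclei at 381, 491 and 369 and 65.1, 222 and 232 CPM. The 2 lower ciliated values and all 3 macrophage values of Bleo_Vehicle were below the controls, but neither change passed (-0.63, SE 0.38, adjusted p = 0.416 and -1.21, SE 0.39, adjusted p = 0.0947).

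In the classes of these calls AT1 markers had a higher group mean in Bleo_Vehicle than in PBS_Vehicle, but not in every library. In venous-like nuclei Bleo_Vehicle replicate 1 (506 CPM) was below PBS_Vehicle replicate 2 (521 CPM). In fibroblast-like nuclei Bleo_Vehicle replicate 1, where Sema3a was highest, was at 155.7 CPM against 155.3 CPM in PBS_Vehicle replicate 1. AT1-like nuclei were where both genes had their highest means. In AT2-like nuclei the 8 AT1 markers summed to 401 to 893 CPM over the PBS_Vehicle libraries, 1203 to 1687 CPM over Bleo_Vehicle and 458 to 611 CPM over Bleo_NVP-BHG712. In fibroblast-like nuclei the ranges were 74.9 to 155, 156 to 399.7 and 51.8 to 139 CPM, in general capillary-like nuclei 557 to 716, 786 to 1195 and 488 to 786 CPM, and in venous-like nuclei 351 to 521, 506 to 1428 and 228 to 365 CPM. All 8 markers were higher in Bleo_Vehicle than in PBS_Vehicle in each of these 4 classes, none was at 0 UMIs, and 4 of 7 tested, 3 of 8, 2 of 5 and 0 of 3 passed the test. In AT1-like nuclei the same list was lower in Bleo_Vehicle, at 7564, 10801 and 12398 CPM against 14419 to 16314 CPM in PBS_Vehicle and 13427 to 16186 CPM in Bleo_NVP-BHG712. The 8 AT2 markers were at 113 to 231 CPM in PBS_Vehicle and 349 to 1167 CPM in Bleo_Vehicle in fibroblast-like nuclei, at 219.6 to 432 and 560.3 to 2689 CPM in general capillary-like nuclei, and at 177 to 309 and 469 to 2474 CPM in venous-like nuclei. In AT1-like nuclei they were at 184 to 298, 255 to 938 and 202 to 236 CPM in PBS_Vehicle, Bleo_Vehicle and Bleo_NVP-BHG712.

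Set against that list, there were 14.1, 20.9 and 25.3 Sema3a UMIs per 100 AT1-marker UMIs in AT1-like nuclei of PBS_Vehicle and 29.8, 10.7 and 15.9 in those of Bleo_Vehicle. In AT2-like nuclei the ratios were 3.57, 9.18 and 7.75 and 9.12, 9.32 and 11.8, below most AT1-like values, and in fibroblast-like nuclei 12.7, 16.3 and 33.1 and 135, 14.5 and 14.3, the high value being the library in which 1 nucleus held most of the UMIs. For Sema3e the ratios in AT2-like nuclei were 6.15, 11.1 and 9.86 in PBS_Vehicle and 20.4, 16.5 and 11.7 in Bleo_Vehicle, against 18.6, 32.4 and 37 and 25.9, 26.5 and 29.96 in AT1-like nuclei. In fibroblast-like nuclei the Sema3e ratios were 14.3, 35.9 and 49.6 and 22.6, 22.2 and 23.5. The part of AT1 transcripts in the calls for Sema3a and Sema3e was not tested.

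**Figure D5:**
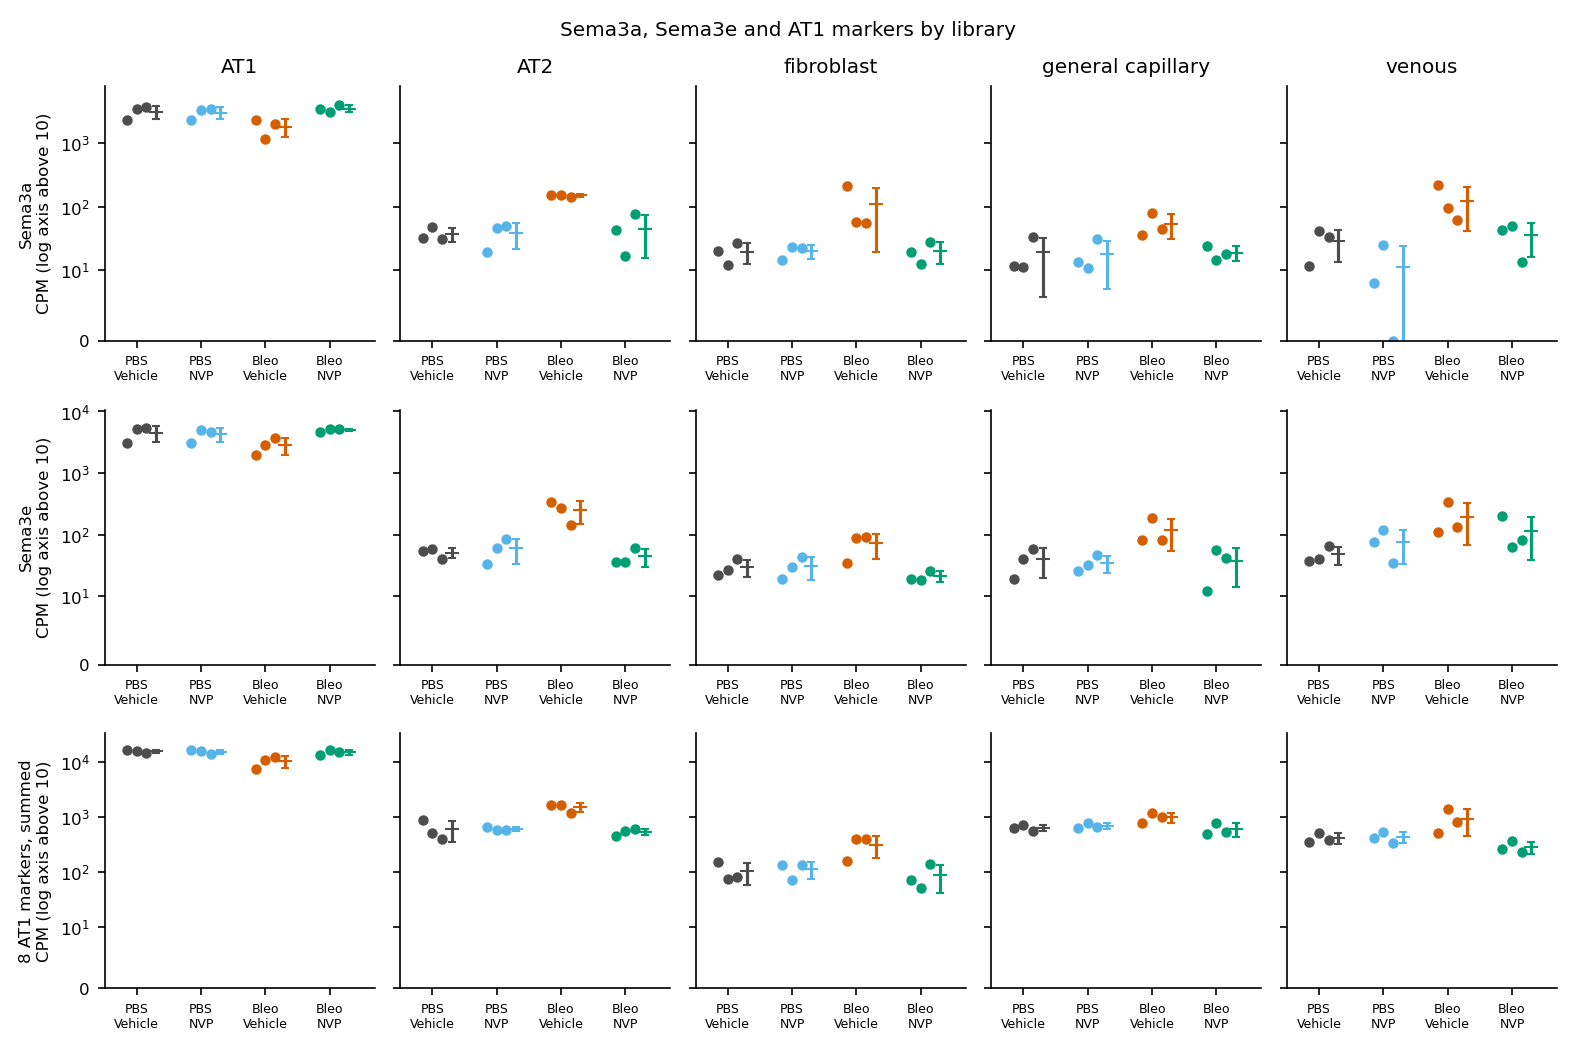
Sema3a (top), Sema3e (middle) and the sum of 8 AT1 markers (bottom) in AT1, AT2, fibroblast, general capillary and venous nuclei (CPM, logarithmic above 10 and linear to 0 below), 1 point per library by group with the mean ± SD. In the 4 classes other than AT1 the Bleo_Vehicle points are the highest group mean in all 3 rows, and in AT1 nuclei they are the lowest.

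The remaining ligands made no call. Sema3c in general capillary-like nuclei was at 3932, 4542 and 3703 CPM in PBS_Vehicle, 1139, 1375 and 3611 CPM in Bleo_Vehicle and 3309, 5516 and 3675 CPM in Bleo_NVP-BHG712. Bleo_Vehicle replicates 1 and 2, those of the highest mitochondrial share, were far below all others, and replicate 3 lay just below the lowest control, so that the log2 changes of -0.97 (SE 0.34, adjusted p = 0.152) and 1.01 (SE 0.34, adjusted p = 0.114) did not pass. Sema3d in lymphatic-like nuclei, a class too small for the test, showed the same order, with 1226 and 1449 CPM in the 2 PBS_Vehicle libraries that had enough nuclei and 227, 265 and 974 CPM in Bleo_Vehicle, and no Bleo_NVP-BHG712 library had 20 such nuclei. Sema3b in AT1-like nuclei was at 19.2 ± 3.62 CPM (SD, n = 3) in PBS_Vehicle and 16.6 ± 1.91 CPM (SD, n = 3) in Bleo_Vehicle, a log2 change of -0.20 (SE 0.28, adjusted p = 0.771). Sema3f in aerocyte capillary-like nuclei was at 252, 78.9 and 151 CPM in PBS_Vehicle, 249, 168 and 139 CPM in Bleo_Vehicle and 68.2, 112 and 131 CPM in Bleo_NVP-BHG712. Bleo_Vehicle overlapped with PBS_Vehicle and lay above all Bleo_NVP-BHG712 libraries, by a small margin, and neither log2 change passed, at 0.04 (SE 0.36, adjusted p = 0.999) after bleomycin and -0.70 (SE 0.41, adjusted p = 0.536) with NVP-BHG712. Sema3g in arterial-like nuclei was at 198, 77.7 and 151 CPM in PBS_Vehicle, 232 and 197 CPM in Bleo_Vehicle replicates 2 and 3 and 189 and 114 CPM in Bleo_NVP-BHG712 replicates 2 and 3, from at most 69 UMIs a library. Here too the Bleo_Vehicle libraries overlapped with the PBS_Vehicle range and lay above the inhibitor libraries, without a call, at log2 changes of 0.43 (SE 0.42, adjusted p = 0.92) and -0.39 (SE 0.52, adjusted p = 0.891).

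Among the receptors, Plxna2 was called in alveolar macrophage-like nuclei, the phagocytes of the airspace, in both comparisons. It was at 12.7, 23 and 14.9 CPM in PBS_Vehicle (29, 9 and 4 UMIs), 46.2, 62.4 and 37.6 CPM in Bleo_Vehicle (27, 70 and 137 UMIs) and 0, 10.3 and 5.80 CPM in Bleo_NVP-BHG712 (0, 4 and 2 UMIs). The Bleo_Vehicle libraries were above all others and the Bleo_NVP-BHG712 libraries were below those of both vehicle groups. Plxna2 rose by 1.61 (SE 0.46, adjusted p = 0.0419) after bleomycin and fell by 2.89 (SE 0.60, adjusted p = 0.0129) with the inhibitor on the log2 scale. The rise was lost in 6 of 12 fits that left out 1 library, those without PBS_Vehicle replicates 1, 2 or 3, Bleo_Vehicle replicates 1 or 2 or Bleo_NVP-BHG712 replicate 3 (adjusted p = 0.0542 to 0.234), and the fall without Bleo_Vehicle replicate 2 or Bleo_NVP-BHG712 replicate 3 (adjusted p = 0.0588 to 0.0768). Without Bleo_Vehicle replicates 1 and 2 the values were 1.24 (adjusted p = 0.594) and -2.52 (adjusted p = 0.15). In aerocyte capillary-like nuclei, its highest class, Plxna2 was at 831, 906 and 654 CPM in PBS_Vehicle, 1291, 1211 and 1216 CPM in Bleo_Vehicle and 741, 943 and 737 CPM in Bleo_NVP-BHG712. Bleo_Vehicle stood above both groups without overlap, but the log2 changes of 0.62 (SE 0.18, adjusted p = 0.158) and -0.61 (SE 0.19, adjusted p = 0.131) did not pass the threshold.

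Plxna4 was the receptor with the most calls, 3 after bleomycin and 4 with NVP-BHG712. In alveolar macrophage-like nuclei it was at 9.64, 10.2 and 14.9 CPM in PBS_Vehicle, 27.4, 76.7 and 31.6 CPM in Bleo_Vehicle and 5.43, 7.76 and 11.6 CPM in Bleo_NVP-BHG712. Bleo_Vehicle was above both groups without overlap, and the log2 changes were 2.07 (SE 0.51, adjusted p = 0.0195) and -2.37 (SE 0.60, adjusted p = 0.0338). In club-like nuclei the libraries held 74.6, 89.3 and 76.4, 363, 267 and 220.0 and 62.4, 57.3 and 69 CPM in the same order of groups, though 19 of the 25 UMIs of Bleo_Vehicle replicate 1 came from 1 nucleus. Again all Bleo_Vehicle libraries were highest, with changes of 1.71 (SE 0.42, adjusted p = 0.0398) and -2.08 (SE 0.47, adjusted p = 0.0346). In fibroblast-like nuclei Plxna4 was at 25.9, 15.2 and 20.3 CPM in PBS_Vehicle, 30.7, 55.3 and 56.7 CPM in Bleo_Vehicle and 18.1, 20.5 and 30.6 CPM in Bleo_NVP-BHG712. The groups were separate by a small margin, since Bleo_Vehicle replicate 1 lay just above the highest library of each of the other groups, and Plxna4 rose by 1.23 (SE 0.27, adjusted p = 0.0169) and fell by 1.08 (SE 0.28, adjusted p = 0.0303).

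In ciliated-like nuclei Plxna4 was at 30.04, 80.8 and 5.91 CPM in PBS_Vehicle, 57, 249 and 78.3 CPM in Bleo_Vehicle and 13.1, 21.5 and 20.03 CPM in Bleo_NVP-BHG712. The controls spread widely and overlapped with Bleo_Vehicle, so the change after bleomycin was not called (1.77, SE 0.59, adjusted p = 0.137), whereas the inhibitor libraries were all below Bleo_Vehicle and Plxna4 fell by 2.89 (SE 0.70, adjusted p = 0.0278). In mesothelial-like nuclei, its highest class and one too small to test, Plxna4 was at 1132 and 2185 CPM in the 2 usable PBS_Vehicle libraries, 344, 678 and 1383 CPM in Bleo_Vehicle and 1921 CPM in the single usable Bleo_NVP-BHG712 library.

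After bleomycin, the Plxna4 call was lost in alveolar macrophage-like nuclei without PBS_Vehicle replicates 1 or 2 (adjusted p = 0.0591 to 0.145), and in fibroblast-like nuclei without PBS_Vehicle replicates 2 or 3 or Bleo_Vehicle replicate 2 (adjusted p = 0.0692 to 0.0766). Plxna4 in alveolar macrophage-like nuclei was tested in only 10 of the 12 fits that left out 1 library, in both comparisons. The call in club-like nuclei was lost in 9 of 12 fits, all but those without PBS_NVP-BHG712 replicates 1 or 2 or Bleo_Vehicle replicate 3 (adjusted p = 0.0602 to 0.146). With NVP-BHG712, it was lost in alveolar macrophage-like nuclei without Bleo_NVP-BHG712 replicates 1, 2 or 3 (adjusted p = 0.0982 to 0.139), in fibroblast-like nuclei without Bleo_Vehicle replicates 2 or 3 or Bleo_NVP-BHG712 replicates 1 or 2 (adjusted p = 0.0565 to 0.112), in ciliated-like nuclei without Bleo_Vehicle replicate 2 or Bleo_NVP-BHG712 replicates 1, 2 or 3 (adjusted p = 0.0927 to 0.272), and in club-like nuclei without PBS_Vehicle replicate 3, PBS_NVP-BHG712 replicate 3, Bleo_Vehicle replicates 1 or 2 or Bleo_NVP-BHG712 replicates 1, 2 or 3 (adjusted p = 0.0507 to 0.165). Without Bleo_Vehicle replicates 1 and 2 the call in fibroblast-like nuclei was kept in both comparisons, at 1.44 (adjusted p = 0.026) and -1.30 (adjusted p = 0.0488). The others were then 1.54 (adjusted p = 0.442) and -1.84 (adjusted p = 0.436) in alveolar macrophage, 1.44 (adjusted p = 0.545) and -1.82 (adjusted p = 0.364) in club and -2.02 (adjusted p = 0.304) in ciliated-like nuclei.

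Markers of alveolar epithelium also stood beside the receptor calls, and AT2-like nuclei were among the 4 classes where Plxna2 and Plxna4 had their highest means. In alveolar macrophage-like nuclei the AT1 list summed to 99.8 to 142 CPM in PBS_Vehicle, 284 to 472 CPM in Bleo_Vehicle and 72.4 to 162 CPM in Bleo_NVP-BHG712, with all 8 markers higher after bleomycin and 4 of 6 tested past the threshold, and the AT2 list to 198 to 234, 546 to 1562 and 119 to 203 CPM, with 3 of 5 past it. In ciliated-like nuclei the AT1 list was at 248 to 735, 620.2 to 1664 and 185 to 341 CPM in these groups, and in club-like nuclei at 628 to 1236, 1002 to 1565 and 721 to 1121 CPM, where 5 of 8 markers were higher after bleomycin. The AT2 list was at 229 to 449 CPM in PBS_Vehicle, 627, 2585 and 1751 CPM in Bleo_Vehicle and 203 to 536 CPM in Bleo_NVP-BHG712 in ciliated-like nuclei. In club-like nuclei it was at 1435 to 2077 CPM in PBS_Vehicle, 1235, 3240.3 and 3548 CPM in Bleo_Vehicle, so that replicates 2 and 3 were above the controls and replicate 1 below them, and 1311 to 1837 CPM in Bleo_NVP-BHG712. In AT2-like nuclei themselves Plxna2 (0.06, SE 0.30, adjusted p = 0.963) and Plxna4 (-0.31, SE 0.21, adjusted p = 0.51) were not called. The part of these transcripts in the receptor calls was not tested.

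Plxnd1 was tested in 10 classes and called in none of them. In arterial-like nuclei it was at 386, 311 and 341 CPM in PBS_Vehicle, 270.1 and 123 CPM in Bleo_Vehicle replicates 2 and 3 and 284 and 370.4 CPM in Bleo_NVP-BHG712 replicates 2 and 3, since replicate 1 of either group had under 20 such nuclei. Both bleomycin libraries were below the controls, but from 14 and 43 UMIs the log2 change of -1.04 (SE 0.41, adjusted p = 0.579) did not pass, and with NVP-BHG712 it was 0.91 (SE 0.48, adjusted p = 0.652).

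No effect of NVP-BHG712 on these genes was called in uninjured lungs. In PBS_NVP-BHG712 against PBS_Vehicle edgeR called 0 of the 71 combinations, where 0% of all combinations were called, with 3 at an unadjusted p under 0.05 (1.07% of all combinations) and 0 by DESeq2. Sema3a in AT1-like nuclei, for example, was at 2259.7, 3246 and 3439.8 CPM in PBS_NVP-BHG712, and Sema3c in general capillary-like nuclei at 3837, 5099 and 4022 CPM, both within or near the PBS_Vehicle range (-0.06, SE 0.25, adjusted p = 1 and 0.09, SE 0.33, adjusted p = 1). Between the 2 inhibitor groups, Bleo_NVP-BHG712 against PBS_NVP-BHG712, edgeR again called 0, where 0% of all combinations were called, with 2 at an unadjusted p under 0.05 (3.26% of all combinations) and 0 by DESeq2. Whether the effect of bleomycin itself differed with the inhibitor was tested as an interaction, in which edgeR called 0 of 71 (0.441% of all combinations were called), with 20 at an unadjusted p under 0.05 (10.7% of all combinations) and 4 by DESeq2. A difference between the bleomycin effects with and without NVP-BHG712 was therefore not shown by this test for any of the 10 genes.

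The partners of these genes were followed as a list of 41, of which 35 were tested in at least 1 class. In Bleo_Vehicle against PBS_Vehicle 13 of 196 combinations were higher and 1 was lower, and in Bleo_NVP-BHG712 against Bleo_Vehicle 4 were higher and 13 lower. Over all combinations 2.6% were higher and 0.782% lower in the former comparison, and 1.24% were higher and 2.86% lower in the latter, and several of the counts lie near these shares. By role, the coreceptors Nrp1 and Nrp2 gave 3 higher of 19 after bleomycin, the other plexins 0 of 24, the adhesion coreceptors L1cam, Chl1 and Nrcam 1 of 5, the intracellular effectors 3 of 76, the proprotein convertases that cleave class 3 semaphorins 3 of 21, and the other semaphorins 3 higher and 1 lower of 51. With NVP-BHG712 the counts of lower combinations were 2, 0, 2, 6, 0 and 3 in the same order, and the 4 higher ones were effectors (2) and other semaphorins (2). Among the other plexins, with 0 calls by edgeR and 0 by DESeq2 in either comparison, 5 combinations had an unadjusted p under 0.05 after bleomycin and 5 with NVP-BHG712, and for the convertases with NVP-BHG712 10 did, with 1 called by DESeq2.

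Nrp1, the coreceptor of Sema3a, rose after bleomycin in ciliated-like nuclei, from 56.9, 56.9 and 23.6 CPM in PBS_Vehicle to 418, 339 and 74.7 CPM in Bleo_Vehicle, and was at 13.1, 6.16 and 20.03 CPM in Bleo_NVP-BHG712. The sums were 36, 19 and 4 UMIs in PBS_Vehicle and 22, 234 and 144 UMIs in Bleo_Vehicle. In Bleo_NVP-BHG712 they were only 2, 2 and 4 UMIs, near the floor. All Bleo_Vehicle libraries were above all libraries of the other 2 groups, with replicate 3 much nearer to them, and the log2 changes were 2.35 (SE 0.56, adjusted p = 0.042) and -4.34 (SE 0.73, adjusted p = 0.00424). In club-like nuclei Nrp1 rose by 1.90 (SE 0.41, adjusted p = 0.0199) and fell by 2.14 (SE 0.46, adjusted p = 0.0205), and Nrp2 rose in alveolar macrophage-like nuclei by 0.79 (SE 0.20, adjusted p = 0.0265). In aerocyte capillary and AT2-like nuclei, where Nrp1 was highest, its changes went the other way without a call. They were -0.36 (SE 0.21, adjusted p = 0.784) and -1.17 (SE 0.33, adjusted p = 0.0591) after bleomycin. With NVP-BHG712 they were 0.50 (SE 0.22, adjusted p = 0.328) and 1.05 (SE 0.33, adjusted p = 0.0784). Chl1, an adhesion molecule that can act as a semaphorin coreceptor, had the largest change of the list, in fibroblast-like nuclei, with 0.539, 1.96 and 0 CPM in PBS_Vehicle from 3, 4 and 0 UMIs, 366, 125 and 57.8 CPM in Bleo_Vehicle and 1.01, 0.978 and 1.95 CPM in Bleo_NVP-BHG712. It was near absent outside Bleo_Vehicle, where it varied several-fold between mice, and its fitted log2 changes of 7.76 (SE 0.91, adjusted p = 0.00114) and -7.03 (SE 0.92, adjusted p = 0.0025) depend on the prior count used for such low controls. Mical2, an enzyme that disassembles actin filaments, rose by 2.89 (SE 0.50, adjusted p = 0.00809) and fell by 3.05 (SE 0.53, adjusted p = 0.00714) in the same nuclei. The kinase gene Fyn fell by 3.09 (SE 0.77, adjusted p = 0.0356) with NVP-BHG712 in club-like nuclei. Its sums there were low, at 5, 29 and 41 UMIs in Bleo_Vehicle and 1, 3 and 0 UMIs in Bleo_NVP-BHG712. In the same comparison Fyn also fell in ciliated-like nuclei, by 2.57 (SE 0.60, adjusted p = 0.0231). It went the other way in fibroblast-like nuclei, with a rise of 0.93 (SE 0.23, adjusted p = 0.0271). The further fits of Fyn given below are those in club-like nuclei. Among semaphorins of other classes, Sema4d rose by 3.29 (SE 0.57, adjusted p = 0.0025) in alveolar macrophage-like nuclei and Sema5a by 2.93 (SE 0.72, adjusted p = 0.0454) in ciliated-like nuclei after bleomycin. Sema4d rested on 7, 2 and 0 UMIs in PBS_Vehicle and 16, 31 and 130 UMIs in Bleo_Vehicle. For Sema5a these sums were 11, 2 and 3 and 7, 126 and 51 UMIs. Sema6d went the other way in general capillary-like nuclei and fell by 1.56 (SE 0.27, adjusted p = 0.00243) after bleomycin. With NVP-BHG712 Sema6d rose there by 1.76 (SE 0.28, adjusted p = 0.00124), and its libraries are given further below. Without Bleo_Vehicle replicates 1 and 2, Chl1 (6.15, adjusted p = 4.98e-05 and -5.44, adjusted p = 0.000275), Mical2 (1.58, adjusted p = 0.0251 and -1.76, adjusted p = 0.0171), Nrp1 in club-like nuclei (1.62, adjusted p = 0.0457 and -1.86, adjusted p = 0.0386), Nrp1 in ciliated-like nuclei with the inhibitor (-2.61, adjusted p = 0.03) and Sema4d (3.50, adjusted p = 0.0245) kept their calls. Nrp1 (0.57, adjusted p = 1) and Sema5a (0.92, adjusted p = 1) in ciliated-like nuclei after bleomycin, Nrp2 (0.67, adjusted p = 0.303) and Fyn (-2.13, adjusted p = 0.502) lost theirs. When 1 library was left out, Chl1 and Mical2 in both comparisons and Nrp1 in ciliated-like nuclei with the inhibitor lost no call. The call for Nrp1 in club-like nuclei was lost in 2 of 12 such fits after bleomycin (adjusted p = 0.0737 to 0.109) and in 2 of 12 with NVP-BHG712 (adjusted p = 0.0757 to 0.108), and that in ciliated-like nuclei after bleomycin in 5 of 12 (adjusted p = 0.0795 to 0.595). Sema5a lost its call in 7 of 12 (adjusted p = 0.0515 to 0.818), Fyn in 3 of 11 (adjusted p = 0.0744 to 0.163), Nrp2 in 3 of 12 (adjusted p = 0.0749 to 0.163), and Sema4d in 1 of 10, without PBS_Vehicle replicate 1 (adjusted p = 0.0545). The AT1 and AT2 lists given above for ciliated, club, fibroblast, general capillary and alveolar macrophage-like nuclei apply to these calls as well, and their part was not tested.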

How the data were processed

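Single-nucleus RNA sequencing of 12 mouse lungs, 3 mice in each of 4 groups taken from the sample titles, was used as the filtered matrices of raw counts (UMIs per gene and nucleus) that the authors deposited; the submitters' processing notes name Cell Ranger 7.0, Seurat 4.4.1 and the mm10 genome, while the file headers give a later release of Cell Ranger 7. The study also removed free RNA (DecontX) and doublets with its own tools before clustering, steps that the deposited counts do not carry and that were not repeated here in that form. Nuclei with 200 to 6000 genes and at most 5% mitochondrial UMIs were kept (47319 of 49163), and 2708 doublets were removed with Scrublet at 0.8% per 1000 nuclei. Free RNA was not removed. Scanpy 1.11.5 was used with 2000 variable genes, from which the 10 genes and their wider list were left out, 30 components, a Harmony correction by library, 20 neighbours and Leiden clustering at resolution 1. Clusters were named from 33 marker lists, with naming thresholds set after the clusters were seen, and need at least 3 markers. UMIs were summed per library and class where a library had at least 20 nuclei, and a class was tested where every group had at least 2 such libraries. CPM are these sums per 1000000 UMIs after TMM scaling within the class. edgeR 4.0.16 was used for all tests (filterByExpr, TMM, robust quasi-likelihood fit on all groups, Benjamini-Hochberg adjustment over the genes of a class and contrast, threshold 0.05), with limma 3.58.1 in R 4.3.3, and DESeq2 1.42.0 as an alternative. The fits were tested on simulated data. Every gene was described in each class, and every called combination of the 10 genes is named. Uncalled ones are named in the class of the highest mean. Of the wider list up to 4 per comparison with the largest change are named, and every call of Nrp1 and Nrp2. A few further uncalled values (Sema3e in ciliated and alveolar macrophage-like, Plxna2 and Plxna4 in AT2-like, Nrp1 in AT2 and aerocyte capillary-like nuclei) were chosen after they were seen. So were the further calls of Fyn and Sema6d. The genes and lists were chosen with earlier results of these data known. The mice of a group are separate animals, and p-values measure the spread between their libraries. In every group but Bleo_NVP-BHG712 the libraries carry more than 1 run or batch number. That spread therefore holds differences between mice and between runs or batches together. The sequencing depth sets the counting error, and only some of the low sums are given with their UMIs. The replicate numbers paired the PBS groups, by a correlation of deviations over 0.1 in every same-number pair. In the other comparisons only some such pairs were over 0.1. They were 8 of 12 between PBS_NVP-BHG712 and Bleo_NVP-BHG712, and 1 of 12 between Bleo_Vehicle and either PBS_Vehicle or Bleo_NVP-BHG712. Gene spans are from GENCODE M21 and promoters from RefSeq, both GRCm38. Alternatives covered scaling, the test, filters, doublets, batch correction, the replicate block and each library left out.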

Additional observations from a re-analysis of the deposited data

Results flagged for a closer look

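The interaction test asked whether the effect of bleomycin differed with NVP-BHG712. It called none of the 10 genes (edgeR 0 of 71, 20 at an unadjusted p under 0.05, DESeq2 4). Of the wider list it called 2 of 196 combinations, in 2 genes. Over all combinations 0.441% were called, and 10.7% had an unadjusted p under 0.05. Nrp1 in ciliated-like nuclei had an interaction of -4.68 (SE 0.94, adjusted p = 0.0311) on the log2 scale in edgeR's quasi-likelihood test: it was at 56.9, 56.9 and 23.6 CPM in PBS_Vehicle, 78.6, 69.7 and 22.5 in PBS_NVP-BHG712, 418, 339 and 74.7 in Bleo_Vehicle and 13.1, 6.16 and 20.03 in Bleo_NVP-BHG712. With vehicle, all bleomycin libraries were above the PBS libraries, and with the inhibitor all were below them. The Bleo_NVP-BHG712 values came from only 2, 2 and 4 UMIs, and replicate 3 of either PBS group from 4 UMIs, all near the floor. Sema6d, a transmembrane semaphorin, had an interaction of 1.74 (SE 0.38, adjusted p = 0.0392) in general capillary-like nuclei, with 899, 1169 and 1583 CPM in PBS_Vehicle, 838, 1266 and 1588 in PBS_NVP-BHG712, 280.2, 382 and 521 in Bleo_Vehicle and 1531, 1078 and 1566 in Bleo_NVP-BHG712. The 3 Bleo_Vehicle libraries were below all 9 others. The call was lost in 9 of 12 fits that left out 1 library for Nrp1 (adjusted p = 0.0512 to 0.15) and in 9 of 12 for Sema6d (adjusted p = 0.0529 to 0.137), and without Bleo_Vehicle replicates 1 and 2 the interactions were -2.95 (adjusted p = 0.0668) and 1.39 (adjusted p = 0.349). Both bleomycin groups have batches of their own, which cannot be told apart from the groups in either result.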

How the results depend on the processing

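No called change of the 10 genes turned its direction under any alternative, and all 137 levels stayed within 1 SD of their value, but the counts of calls moved with the settings. The main fit gave 11 calls in Bleo_Vehicle against PBS_Vehicle and 10 in Bleo_NVP-BHG712 against Bleo_Vehicle. DESeq2 size factors gave 11 and 10, DESeq2's test 14 and 13, no filter on low counts 21 and 19, and doublets kept 9 and 9. Without the filter more than the 71 combinations were tested. The share of all combinations called is not given for these alternatives, nor for the DESeq2 counts further above, so the counts have no background beside them. Restricting the sums to nuclei with 500 UMIs or more and no more than 1% from mitochondria gave 4 and 3 (3 and 3 of them among the reported calls), no batch correction 8 and 5, and the 6 libraries of the comparison alone 7 and 7. Without Bleo_Vehicle replicates 1 and 2, chosen after seeing the data, 3 calls were left in each. When 1 library was left out, the counts were 2 to 22 and 2 to 19: after bleomycin 3, 2 and 6 without PBS_Vehicle replicates 1, 2 and 3, and 3 and 22 without Bleo_Vehicle replicates 2 and 3; with the inhibitor 2, 2 and 4 without Bleo_NVP-BHG712 replicates 1, 2 and 3, and 2 and 19 without Bleo_Vehicle replicates 2 and 3. The interaction gave 0 calls, 4 with DESeq2's test, 9 with no filter, 4 with doublets kept and 0 to 7 when 1 library was left out (2 without PBS_NVP-BHG712 replicate 1, and 2 and 7 without Bleo_Vehicle replicates 1 and 3). The cause of these moves was not tested. Same-number samples of the 2 PBS groups deviated together (r = 0.194 to 0.652 over 12 pairs in 4 classes; replicates 1 share run 1 and replicates 2 share run 2), and there a replicate block gave 0 calls as well. Those of Bleo_Vehicle did not deviate together with PBS_Vehicle or Bleo_NVP-BHG712 (1 of 12 pairs over 0.1 in each case), whose runs carry other numbers in the labels, and the replicate block gave 15 calls after bleomycin, 16 with the inhibitor and 2 in the interaction. PBS_NVP-BHG712 against PBS_Vehicle and Bleo_NVP-BHG712 against PBS_NVP-BHG712 gave 0 calls in every alternative run. With 3 mice a group and sums that fall to a few UMIs in the shallower libraries, a missing call does not show that a level was unchanged.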
